A study of Mus musculus with 6 samples.

Results

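The insulin-like growth factor (IGF) system was followed in mouse osteoblasts as a set of 10 listed genes: the ligands Igf1 and Igf2, the receptors Igf1r and Igf2r, and the binding proteins Igfbp2 to Igfbp7. Their rows were found by gene name. A row was found for 8 of the 10 among the 21686 genes of the count table, while Igf2 and Igfbp3 were not analysed here. RNA sequencing was carried out on MC3T3-E1 Subclone 14 cells, a single clone of a mouse calvarial preosteoblast line, in 3 groups of 2 libraries each. Control cells received 100 µL PBS, dexamethasone cells received 10 µM of this synthetic glucocorticoid, and the third group received 10 µM dexamethasone with 100 µg extracellular vesicles from bone marrow endothelial progenitor cells (EPC-EVs), all for 72 h. The text describing the series as a whole names another incubation time and calls the cells fibroblasts, and the labels of the samples were followed. Vesicles were never given without dexamethasone, and the 2 libraries of a group come from 1 clone, so that a p-value here measures only the spread between these libraries.

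IGF1 is a growth factor made by bone cells, among others, that stimulates osteoblast growth and matrix formation through the type 1 receptor, a tyrosine kinase acting on the PI3K-Akt and MAP kinase pathways. IGF2R, the cation-independent mannose 6-phosphate receptor, takes up IGF2 for degradation in lysosomes and sorts lysosomal enzymes. The secreted binding proteins hold IGFs in the matrix and in body fluids, and proteases of the pappalysin family release the ligand from some of them. Glucocorticoids in excess are known for bone loss, which is the setting of the study.

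Total counts ran from 5146760 to 6583735 in the control and dexamethasone libraries and were 12864009 and 13182014 with EPC-EVs. The share of counts from mitochondrially encoded genes was 7.46% to 8.62% in controls, 5.55% to 5.78% with dexamethasone and 0.465% to 0.727% with EPC-EVs, so depth and this share both moved with the vesicle group. All 8 osteoblast markers had a row. Their summed level was 14967 to 16632 CPM (counts scaled to library size) in controls, 16022 to 16394 with dexamethasone and 20858 to 26756 with EPC-EVs. Within that sum Col1a1 went from 2205 to 2905 CPM in the other 4 libraries to 6914 and 8770 CPM with EPC-EVs and Col1a2 from 2302 to 2750 CPM to 9351 and 11662 CPM, while Spp1 went the other way, from 10249 to 11314 CPM to 4405 and 6104 CPM. Of the markers of mature osteoblasts, Bglap had 0 to 83 counts per library, Ibsp 2 to 26 and Alpl 0 to 17. A list of 7 known glucocorticoid target genes summed to 449 to 522 CPM in controls, 424 to 436 CPM with dexamethasone and 778 to 1144 CPM with EPC-EVs. Dusp1 (264 and 405 CPM against 65.9 to 95.3 CPM elsewhere), Tsc22d3, Fkbp5 and Sgk1 were above all other libraries with EPC-EVs. Klf9 went the other way, at 55.0 and 49.8 CPM against 55.4 to 67.3 CPM. Per1 overlapped the other libraries, and Zbtb16 had 0 to 6 counts. The cell type markers and these targets are levels only and were not tested as lists.

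Sequences before the transcription start of Igf1, Igfbp6 and Igfbp7 are shown because these are the genes that were higher with EPC-EVs in both comparisons. RefSeq windows on GRCm38.p6 reach from 250 bases before to 50 bases after a start and were found for 8 of 8 genes. The Igf1 window is chr10:87860861-87861160 on the plus strand and lies inside the annotated gene, which has 8 transcript starts, the nearest of them 218 bases away. The Igfbp6 window is chr15:102143936-102144235 on the plus strand, 176 bases from the nearest annotated start. The Igfbp7 window is chr5:77407996-77408295 on the minus strand, 4 bases from the nearest annotated start. Capitals mark the matches to the motifs searched on both strands.
Igf1: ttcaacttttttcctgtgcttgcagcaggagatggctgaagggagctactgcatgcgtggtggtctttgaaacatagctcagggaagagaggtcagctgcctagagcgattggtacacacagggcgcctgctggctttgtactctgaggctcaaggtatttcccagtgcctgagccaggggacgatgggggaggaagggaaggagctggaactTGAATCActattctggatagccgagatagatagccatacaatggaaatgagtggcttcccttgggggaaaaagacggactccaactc
Igfbp6: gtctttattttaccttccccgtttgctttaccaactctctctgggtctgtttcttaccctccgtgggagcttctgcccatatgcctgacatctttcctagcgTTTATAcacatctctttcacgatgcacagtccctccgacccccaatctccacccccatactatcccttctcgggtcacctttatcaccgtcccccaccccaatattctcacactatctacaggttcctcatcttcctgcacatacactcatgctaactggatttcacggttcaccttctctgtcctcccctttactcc
Igfbp7: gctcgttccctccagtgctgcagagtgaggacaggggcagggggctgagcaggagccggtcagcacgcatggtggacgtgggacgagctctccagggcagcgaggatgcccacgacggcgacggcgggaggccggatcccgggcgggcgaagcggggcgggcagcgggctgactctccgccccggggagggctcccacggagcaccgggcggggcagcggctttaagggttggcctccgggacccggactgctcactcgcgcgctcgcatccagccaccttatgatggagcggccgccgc
The capitals in Igf1 are a match to the AP-1 motif TGANTCA, 37 bases before the start, and such a match was held by 7.81% of all 32851 windows. The capitals in Igfbp6 are TATAAA read on the other strand, 148 bases before the start, and 13.6% of all windows hold this motif. Igfbp7 held none of the motifs searched. The full palindromic glucocorticoid response element was in 0.00913% of all windows and in none of the 8 genes', and the C/EBP palindrome TTGCGCAA was in 0.183% and likewise in none of theirs. A single arm of that element, AGAACA, which every full element contains, was in 19% of all windows, among the 8 genes only in Igfbp2. A second Igfbp2 window also held the AP-1 motif, and Igfbp4 held TATAAA 28 bases before its start. The GC content of the windows was 52.3% for Igf1, 49.7% for Igfbp6 and 73.3% for Igfbp7.

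Compared per gene length, as deposited FPKM values (fragments per kilobase of gene length, scaled to the library total), the control cells had the order Igf2r (64.3 ± 9.35, SD, n = 2), Igfbp7 (43.9 ± 0.208), Igfbp4 (30.0 ± 6.93), Igfbp6 (25.8 ± 10.0), Igf1r (19.04 ± 1.27), Igf1 (5.44 ± 0.719), Igfbp5 (2.28 ± 0.158) and Igfbp2 (0.804 ± 0.988). The libraries of Igfbp4 and Igfbp6 overlapped, as did those of Igfbp6 and Igf1r. With dexamethasone the order was the same, and Igfbp5 (2.35 ± 0.356) overlapped Igfbp2 (2.35 ± 0.759). With EPC-EVs the order became Igfbp7 (133 ± 72.2), Igf2r (67.2 ± 4.93), Igfbp6 (59.4 ± 1.27), Igfbp4 (31.9 ± 20.5), Igf1 (19.2 ± 2.43), Igf1r (18.1 ± 0.120), Igfbp5 (2.07 ± 0.922) and Igfbp2 (1.08 ± 0.136). Igf1 stood below its receptor in FPKM in each of the other 4 libraries and overlapped both Igfbp4 and Igf1r here. The ratio of Igf1 to Igf1r FPKM was 0.247 and 0.328 in the control libraries, 0.186 and 0.161 with dexamethasone, and 1.16 and 0.958 with EPC-EVs.

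**Figure D1:**
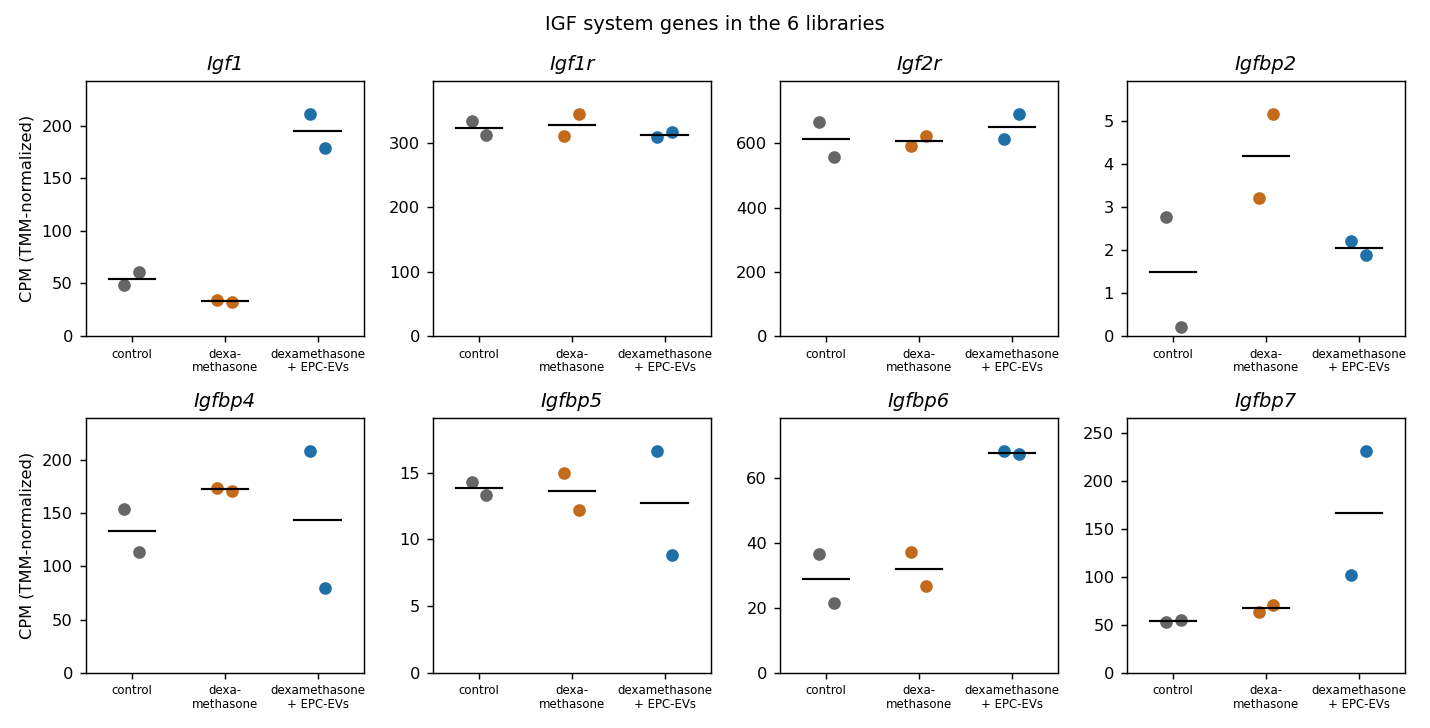
Level of each of the 8 genes in the 6 libraries, in TMM-normalized CPM on a linear axis from 0. Points are libraries and bars are group means (n = 2). The EPC-EV libraries of Igf1, Igfbp6 and Igfbp7 lie above all 4 other libraries, and those of Igfbp4 and Igfbp7 lie far apart from each other.

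Igf1 was the gene of the set with the largest difference. It had 48.7 and 60.3 CPM in the control libraries, 34.2 and 32.7 CPM with dexamethasone, and 211 and 179 CPM with EPC-EVs. No library of 1 group overlapped another group. With EPC-EVs Igf1 was 5.64-fold higher than with dexamethasone (log2 fold change 2.49 ± 0.160, SE, edgeR quasi-likelihood test, Benjamini-Hochberg adjusted p = 1.13e-06) and 3.46-fold higher than in the control (1.79 ± 0.213, edgeR adjusted p = 0.000728). Both calls held in 14 of 14 alternatives, with a log2 fold change of 2.16 to 3.41 against dexamethasone and of 1.65 to 2.97 against the control. With dexamethasone alone the mean was 33.4 ± 1.08 CPM (SD, n = 2) against 54.5 ± 8.21 CPM in controls, a value 1.64-fold lower that did not pass (log2 fold change -0.71 ± 0.240, edgeR adjusted p = 0.356). It passed only when control replicate 1 was left out (log2 fold change -0.87, edgeR adjusted p = 0.00639), a fit in which 1 control library is assumed to vary like the other libraries and in which 18.2% of all genes passed. Igf1 lies on chromosome 10, bases 87858265 to 87937042 of the plus strand (GRCm38, GENCODE vM21). It overlaps Igf1os on the other strand, a gene not analysed here, and while reads were aligned as stranded, whether counting used the strand is not given in the sources used here.

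No difference passed for the receptor genes. Igf1r, on chromosome 7 (bases 67952827 to 68233668, plus strand), had 334 and 312 CPM in controls, 311 and 345 CPM with dexamethasone and 309 and 316 CPM with EPC-EVs. Igf2r, on chromosome 17 (bases 12682406 to 12769664, minus strand), had 668 and 558, then 593 and 624, and then 613 and 691 CPM. The libraries of the 3 groups overlapped for both receptors. Against the control, dexamethasone gave a log2 fold change of 0.01 ± 0.146 for Igf1r and of -0.02 ± 0.145 for Igf2r (SE, edgeR adjusted p = 0.987 and 0.986). With EPC-EVs against dexamethasone the values were -0.12 ± 0.123 for Igf1r and 0.05 ± 0.117 for Igf2r (edgeR adjusted p = 0.486 and 0.752). Against the control they were -0.10 ± 0.168 and 0.04 ± 0.178 (edgeR adjusted p = 0.689 and 0.879). Igf2r shares its locus with Airn, a noncoding RNA read from the other strand, which had 51 to 151 counts per library and a log2 fold change of -0.23 ± 0.347 with EPC-EVs against dexamethasone (edgeR adjusted p = 0.634).

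Of the binding proteins, Igfbp6 and Igfbp7 were higher with EPC-EVs. Igfbp6, which prefers IGF2 over IGF1 as its ligand, had 36.5 and 21.3 CPM in controls, 37.3 and 26.8 CPM with dexamethasone and 68.3 and 67.3 CPM with EPC-EVs. The control and dexamethasone libraries overlapped, and the EPC-EV libraries stood above both. Igfbp6 was 2.05-fold higher than with dexamethasone (log2 fold change 1.03 ± 0.208, SE, edgeR adjusted p = 0.00219) and 2.26-fold higher than in the control (1.18 ± 0.290, edgeR adjusted p = 0.0142). Igfbp6 is a short, GC-rich gene on chromosome 15 (bases 102144362 to 102149511, plus strand). Its counted length was 1112 bases, and its longest annotated transcript held 60.7% GC. In 1 alternative, each library's trend of deviations from the gene means with GC content and length, over all genes, was removed. The log2 fold change of Igfbp6 was then 0.07 against dexamethasone (edgeR adjusted p = 0.793) and -0.20 against the control (edgeR adjusted p = 0.561).

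Igfbp7, a secreted low-affinity IGF binder, had 52.8 and 54.5 CPM in controls, 62.7 and 70.8 CPM with dexamethasone and 101 and 231 CPM with EPC-EVs. The groups did not overlap, but the EPC-EV libraries differed from each other by a factor of 2.28. Igfbp7 was 2.41-fold higher than with dexamethasone (log2 fold change 1.27 ± 0.361, SE, edgeR adjusted p = 0.0304) and 2.99-fold higher than in the control (1.58 ± 0.353, edgeR adjusted p = 0.00937). The first value was 0.56 without EPC-EV replicate 2 (edgeR adjusted p = 0.0308) and 1.74 without EPC-EV replicate 1. The call against dexamethasone was lost without dexamethasone replicate 1 (edgeR adjusted p = 0.128), without dexamethasone replicate 2 (0.0882) and with DESeq2 (adjusted p = 0.0652). Against the control it was lost without control replicate 2 (edgeR adjusted p = 0.0614) and without EPC-EV replicate 2 (log2 fold change 0.87, adjusted p = 0.0580). Igfbp7 had 1209 counted bases and 58.8% GC in its longest transcript. With the GC and length trend removed, its log2 fold change was 0.47 against dexamethasone (edgeR adjusted p = 0.479) and 0.35 against the control (edgeR adjusted p = 0.507). Igf1 had 9904 counted bases and 38.0% GC in its longest transcript. It moved up in those fits, from 2.49 to 3.41 and from 1.79 to 2.97, and stayed called (edgeR adjusted p = 3.90e-07 and 1.70e-05).

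EPC-EV replicate 2, the library in which Igfbp7 was highest, also had 471 counts of the macrophage receptor gene Csf1r, against 0 to 56 in the other 5 libraries. Of 5 blood cell markers, 4 had a row and summed to 11.7 to 12.1 CPM in controls, 17.2 to 18.4 CPM with dexamethasone and 19.01 to 54.2 CPM with EPC-EVs, with Adgre1 at 0 counts in 5 libraries and at 1 in the other. The macrophage marker Cd68 was lowest in EPC-EV replicate 2, at 1.65 CPM against 2.85 to 4.66 CPM in the other 5 libraries, and Lyz2 was highest there, at 15.5 CPM against 5.86 to 13.8 CPM. The 4 endothelial markers with a row, of 6, summed to at most 2.12 CPM in any library, and Cdh5 had 0 counts in all but 1. The 5 mural cell markers summed to 460 to 526, 492 to 536 and 2577 to 2683 CPM in the 3 groups, led by the actin gene Acta2. The pericyte gene Rgs5 went the other way, with 4 and 5 counts with EPC-EVs against 70 to 204 counts in the other libraries. Des was also lower with EPC-EVs, at 3.17 and 1.26 CPM against 3.42 to 8.73 CPM. Cspg4 overlapped between the groups, and Myh11 had 0 to 6 counts. The 5 adipocyte markers summed to 3.18 to 7.82 CPM in controls, 4.42 to 10.9 CPM with dexamethasone and 0.157 to 0.792 CPM with EPC-EVs. The part of these levels in the Igf1, Igfbp6 and Igfbp7 differences was not tested, and in such bulk samples fewer cells of a type and less RNA per cell cannot be told apart. Igfbp7 (chromosome 5, bases 77349240 to 77408041, minus strand) overlaps the RNA polymerase subunit gene Polr2b on the other strand, whose log2 fold change was -0.23 ± 0.144 (edgeR adjusted p = 0.234).

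Igfbp4, an inhibitor of IGF action that the protease PAPP-A cleaves, had 154 and 114 CPM in controls, 174 and 171 CPM with dexamethasone and 209 and 79.4 CPM with EPC-EVs. The EPC-EV libraries of this gene on chromosome 11 (bases 99041244 to 99054392, plus strand) lay a factor of 2.63 apart, in the opposite order to Igfbp7, and enclosed all other libraries. Such spread was unusual in this group, as only 2.56% of the 9223 genes that averaged 10 CPM or more had a ratio of 2 or more between its libraries. The log2 fold change was 0.36 ± 0.183 for dexamethasone against control (edgeR adjusted p = 0.502) and -0.31 ± 0.473 with EPC-EVs against dexamethasone (edgeR adjusted p = 0.658). Against the control it was 0.06 ± 0.393 with EPC-EVs (edgeR adjusted p = 0.924). Without EPC-EV replicate 1 the value against dexamethasone was -1.17 (edgeR adjusted p = 0.000153) and without EPC-EV replicate 2 it was 0.23. Without control replicate 1 the dexamethasone value was 0.58 and passed (edgeR adjusted p = 0.00632).

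Igfbp5 and Igfbp2 were the lowest of the set. Igfbp5, a binding protein stored in bone matrix, had 14.3 and 13.3 CPM in controls, 14.99 and 12.2 CPM with dexamethasone and 16.6 and 8.79 CPM with EPC-EVs. These libraries overlapped in all groups, and the log2 fold changes lay between -0.17 and -0.03 (edgeR adjusted p of 0.785 to 0.991). Igfbp2 had 17 and 1 counts in controls, 22 and 35 with dexamethasone and 28 and 24 with EPC-EVs, or 2.77, 0.199, 3.20, 5.15, 2.22 and 1.88 CPM. The dexamethasone libraries stood above the others, and control replicate 2 was under the floor of 3 counts. The difference of Igfbp2 did not pass in any comparison, with a log2 fold change of 1.45 ± 1.11 for dexamethasone against control (edgeR adjusted p = 0.671) and of -1.07 ± 0.678 with EPC-EVs against dexamethasone (edgeR adjusted p = 0.236). It passed at 4.24 without control replicate 1 (edgeR adjusted p = 0.0408) and at -2.19 with the GC and length trend removed (edgeR adjusted p = 0.0343). The genes are neighbours on chromosome 1, Igfbp2 at bases 72824503 to 72852474 on the plus strand and Igfbp5 at 72857932 to 72874884 on the minus strand, 5457 bases apart.

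**Figure D2:**
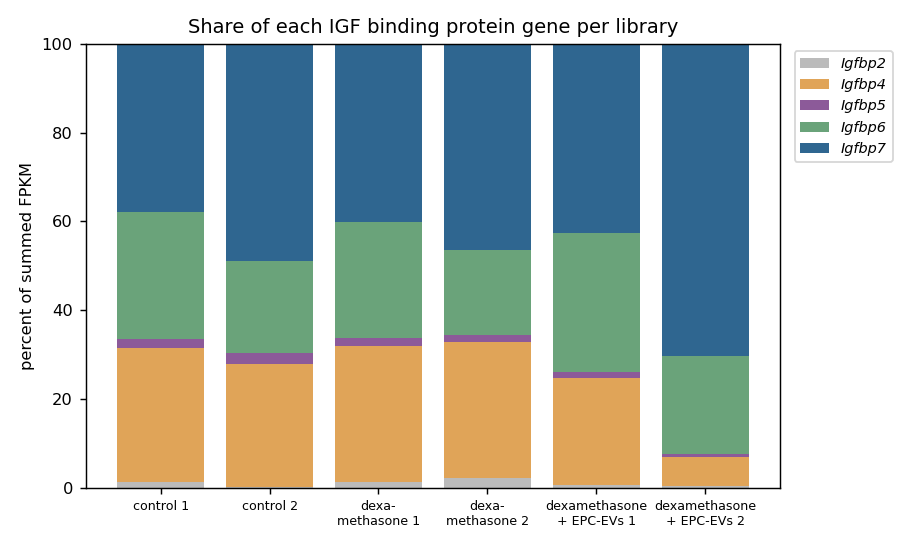
Share of each of the 5 binding protein genes in their summed FPKM, in percent, as stacked bars for each of the 6 libraries. Igfbp7 takes 37.9% to 48.9% in 5 libraries and 70.2% in EPC-EV replicate 2, where Igfbp4 falls to 6.61%.

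As a share of the summed FPKM of the 5 binding protein genes, Igfbp7 held 37.9% and 48.9% in controls, 40.2% and 46.4% with dexamethasone and 42.7% and 70.2% with EPC-EVs. Igfbp4 held 27.9% to 30.7% in the control and dexamethasone libraries, and 24.1% and 6.61% with EPC-EVs. The share of Igfbp6 was 19.1% to 31.2% over all 6 libraries. Summed over the 5 genes, the level was 115 and 90.1 FPKM in controls, 135 and 130 FPKM with dexamethasone and 193 and 263 FPKM with EPC-EVs. Both EPC-EV libraries were above every other library in this sum and below every other library in the Igfbp4 share. Of the 5 genes, only Igfbp6 and Igfbp7 were above every other library in both EPC-EV libraries. Neither passed with the GC and length trend removed, and these FPKM values are without that correction. The Igfbp4 level itself was highest in EPC-EV replicate 1 (46.4 FPKM) and lowest in EPC-EV replicate 2 (17.4 FPKM).

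Counted together, 0 of the 8 genes passed between dexamethasone and control by edgeR or by DESeq2, where 0.0544% of the 12879 genes tested passed by edgeR and 1.04% by DESeq2. An unadjusted p under 0.05 was reached by 1 of the 8 and by 10.9% of all genes tested, and the libraries did not overlap in 4 of the 8 and in 44.1% of all. With EPC-EVs against dexamethasone 3 of 8 passed, all higher (37.5%), against 39.8% of 13556 genes in either direction, 20.9% higher and 18.9% lower. With the GC and length trend removed 1 of the 8 was higher and 1 lower, where 31.3% of all genes passed. With EPC-EVs against control Igf1, Igfbp6 and Igfbp7 passed again, where 36.4% of 13511 genes passed in either direction, 19.1% higher and 17.2% lower. The share of the set was thus near that of all genes. The 2 comparisons with EPC-EVs share those libraries, and the comparisons with dexamethasone share its libraries too. Without the mitochondrially encoded genes the counts were again 0, 3 and 3.

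**Figure D3:**
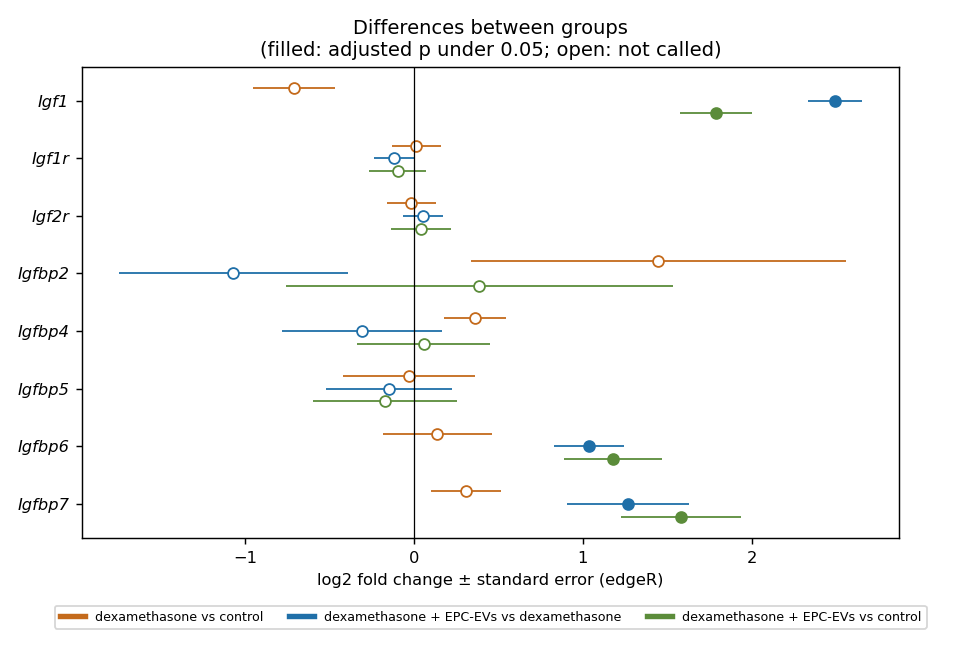
Log2 fold change (horizontal axis) with its standard error as a line for the 8 genes in the 3 comparisons, by the edgeR fit of the 4 libraries compared. Filled points passed an adjusted p of 0.05, which Igf1, Igfbp6 and Igfbp7 did in the blue and green comparisons with EPC-EVs and no gene did for dexamethasone against control.

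**Figure D4:**
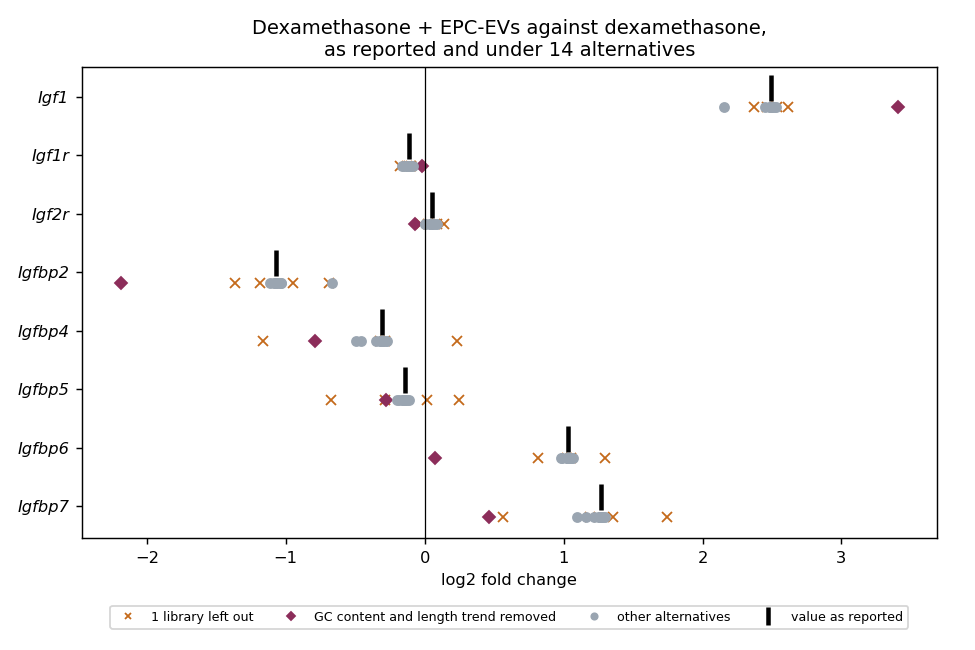
Log2 fold change of the 8 genes with EPC-EVs against dexamethasone as reported (black bars) and under 14 alternatives (points below). Igf1 stays between 2.16 and 3.41, Igfbp6 falls to 0.07 with the GC content and length trend removed, and Igfbp4 runs from -1.17 to 0.23 with the library left out.

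Around these genes the IGF pathway was followed with 48 further genes in 4 lists, 39 of which had a row and 37 of which were tested. With dexamethasone alone 0 of 37 passed by edgeR, 4 had an unadjusted p under 0.05 (Pappa2, Foxo1 and Akt1 among them) and 1 passed by DESeq2 (Pappa2), and the median log2 fold change was 0.03. These 4 stand beside 10.9% of all genes tested at that unadjusted p, and the 1 beside 1.04% of all genes by DESeq2. With EPC-EVs against dexamethasone 15 were higher, 8 were lower and 14 did not pass (62.2% passed, median 0.34). Against the control 13 were higher, 7 were lower and 17 did not pass (54.1% passed, median 0.15). These shares stand beside 39.8% and 36.4% of all genes tested. The first count was 12 (5 higher, 7 lower) without dexamethasone replicate 2 and 18 (9 higher, 9 lower) with the GC and length trend removed, and the second was 13 (5 higher, 8 lower) with that trend removed. Of all genes 23.2%, 31.3% and 26.4% passed in these 3 fits.

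Among the genes that govern IGF availability, 2 of 4 tested were higher with EPC-EVs than with dexamethasone, where 20.9% of all genes tested were higher. With the GC and length trend removed 2 were higher and 1 lower, where 31.3% of all genes passed in either direction. Pappa2, the pappalysin that cleaves IGFBP3 and IGFBP5, had 211 and 327 CPM in controls, 130 and 177 CPM with dexamethasone and 851 and 992 CPM with EPC-EVs. The groups did not overlap, in the order seen for Igf1. Its log2 fold change was 2.54 ± 0.162 against dexamethasone (SE, edgeR adjusted p = 1.09e-06) and 1.73 ± 0.238 against the control (edgeR adjusted p = 0.00123), and passed in 14 of 14 alternatives of each comparison. Between dexamethasone and control it was -0.82 ± 0.228 (edgeR adjusted p = 0.291), which did not pass. That value passed with DESeq2 (log2 fold change -0.83, adjusted p = 0.0351), with no filter (edgeR adjusted p = 0.00204), with the replicate numbers as a block (edgeR adjusted p = 0.0417) and without control replicate 1 (log2 fold change -1.12, edgeR adjusted p = 5.24e-09). Htra1, a secreted serine protease able to cleave IGF binding proteins, was 2.51-fold higher than with dexamethasone (log2 fold change 1.33 ± 0.243, edgeR adjusted p = 0.00125). With the trend removed this value was 0.76 (edgeR adjusted p = 0.0301). Against the control Htra1 did not pass (0.94 ± 0.356, edgeR adjusted p = 0.0699, and -0.11 with the trend removed). Htra3, also of this list, had a log2 fold change of -0.70 ± 0.337 against dexamethasone (edgeR adjusted p = 0.122). It passed at -1.57 with the trend removed (edgeR adjusted p = 0.00611). Pappa, which acts on Igfbp4, had 40.6 to 56.3 CPM over all libraries and a log2 fold change of -0.14 ± 0.214 with EPC-EVs against dexamethasone (edgeR adjusted p = 0.643).

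In the list of growth hormone signalling and Igf1 transcription, 2 of 7 genes were higher and 2 were lower than with dexamethasone, beside 20.9% and 18.9% of all genes. Cebpb, of the C/EBP family of transcription factors, had 19.2 and 16.3 CPM in controls, 33.9 and 18.4 CPM with dexamethasone and 111 and 110 CPM with EPC-EVs. Its log2 fold change was 2.03 ± 0.245 against dexamethasone (edgeR adjusted p = 7.84e-05), and 0.52 (edgeR adjusted p = 0.0609) once the GC and length trend was removed, in a gene of 67.2% GC. Against the control the values were 2.58 ± 0.230 (edgeR adjusted p = 0.000284) and 0.48 (edgeR adjusted p = 0.157). Jak2, the kinase bound to the growth hormone receptor, was 2.80-fold lower than with dexamethasone (log2 fold change -1.49 ± 0.168, edgeR adjusted p = 4.75e-05), and passed in 14 of 14 alternatives. The transducer genes Stat5a and Stat5b, which act below Jak2, moved apart, at -0.72 ± 0.200 (edgeR adjusted p = 0.0136) and 0.68 ± 0.201 (edgeR adjusted p = 0.0188), and with the trend removed they were at -1.37 (edgeR adjusted p = 0.000523) and 0.37 (edgeR adjusted p = 0.176). The growth hormone receptor gene Ghr itself had a log2 fold change of -0.04 ± 0.140 against dexamethasone (edgeR adjusted p = 0.864), and passed with the trend removed at 0.62 (edgeR adjusted p = 0.00653), as it did against the control at 0.71 (edgeR adjusted p = 0.0269).

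Downstream of the receptor, 10 of 22 genes were higher and 5 were lower with EPC-EVs than with dexamethasone, beside 20.9% and 18.9% of all genes. With the GC and length trend removed 5 were higher and 5 lower, beside 2176 and 2064 of all 13556 genes (31.3% in either direction). The kinase gene Akt1 was 2.27-fold higher than with dexamethasone (log2 fold change 1.18 ± 0.145, SE, edgeR adjusted p = 8.42e-05). It rose from 73.0 and 71.9 CPM in controls and 131 and 111 CPM with dexamethasone to 305 and 263 CPM, but its value with the GC and length trend removed was 0.37 (edgeR adjusted p = 0.0510). Pik3r2, a regulatory subunit of PI3K, was 2.59-fold higher (log2 fold change 1.37 ± 0.160, edgeR adjusted p = 6.16e-05), with 0.43 (edgeR adjusted p = 0.0429) once the trend was removed. Rps6kb1, the ribosomal S6 kinase gene, was 2.18-fold lower (-1.13 ± 0.168, edgeR adjusted p = 0.000328), with -0.34 (edgeR adjusted p = 0.141) once the trend was removed. Against the control the receptor substrate gene Irs2 was 2.41-fold higher (1.27 ± 0.300, edgeR adjusted p = 0.0118), with 0.38 (edgeR adjusted p = 0.360) once the trend was removed and an edgeR adjusted p of 0.119 without EPC-EV replicate 2, and the transcription factor gene Foxo1 was 3.12-fold lower (-1.64 ± 0.233, edgeR adjusted p = 0.00137). Also against the control, Pik3r2 lost its call with the trend removed (edgeR adjusted p = 0.0877), as did Akt1 (0.0587) and Rps6kb1 (0.189).

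In the list of the insulin family and the Igf2 mRNA binding proteins, 1 of 4 tested genes was higher and 1 was lower in both comparisons with EPC-EVs, beside 20.9% and 18.9% of all genes against dexamethasone and 19.1% and 17.2% against the control. Igf2bp2, an mRNA-binding protein gene, was 2.32-fold lower than with dexamethasone (log2 fold change -1.21 ± 0.173, edgeR adjusted p = 0.000237) and 2.59-fold lower than in the control (-1.37 ± 0.215, edgeR adjusted p = 0.00200). Its relative Igf2bp1 was higher than with dexamethasone by 0.79 ± 0.165 on the log2 scale (edgeR adjusted p = 0.00291) and than in the control by 1.26 ± 0.240 (edgeR adjusted p = 0.00475). The insulin receptor gene Insr had a log2 fold change of 0.01 ± 0.151 against dexamethasone (edgeR adjusted p = 0.978).

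**Figure D5:**
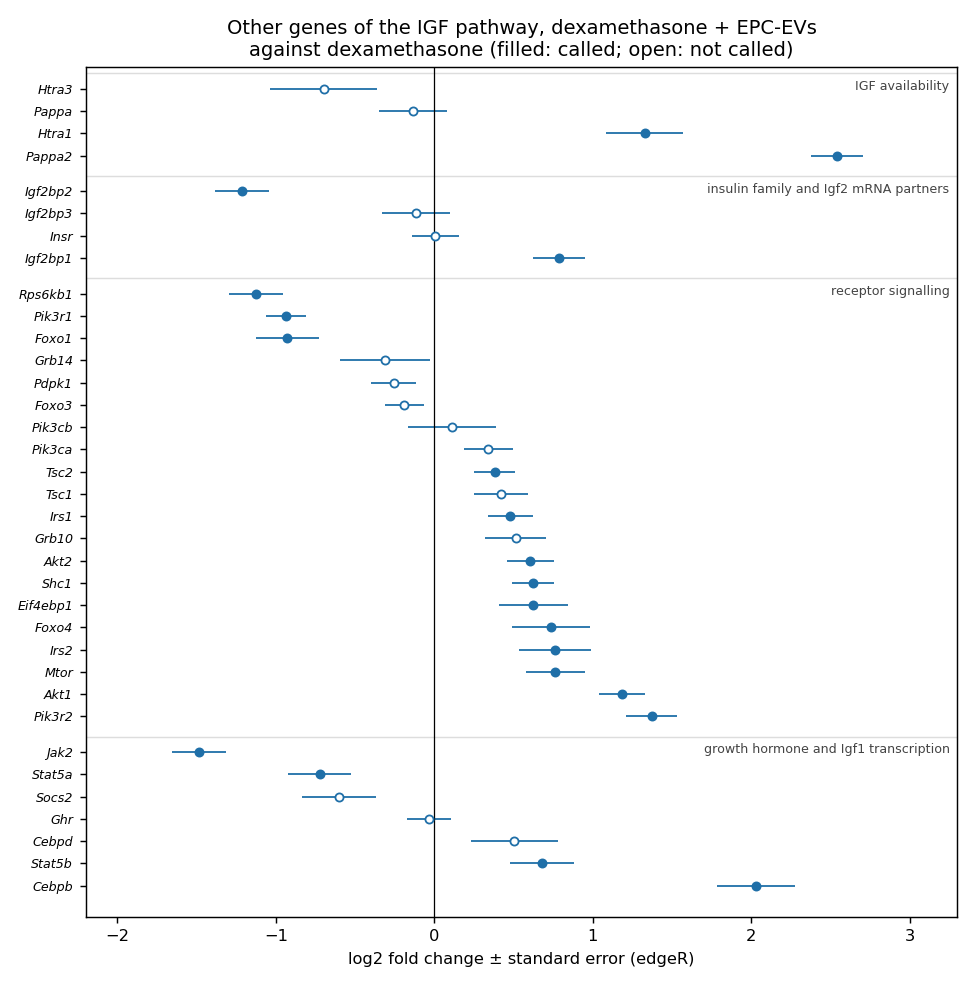
Log2 fold change (horizontal axis) with its standard error for 35 tested genes of the IGF pathway in 4 lists, EPC-EVs with dexamethasone against dexamethasone. Filled points are the 21 that passed, led by Pappa2 at 2.54 and, among the lower ones, Jak2 at -1.49.

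Finally, the genes whose levels ran most like those of the ligand, the leading receptor and the leading binding protein were sought among 9223 genes, by Pearson correlation of log2 CPM over the 6 libraries, which share depth and mitochondrial share by group. For Igf1 these were Gtf3c4 (r = 0.998), Rab34 (0.994) and the collagen gene Col12a1 (0.993), and 8 genes were above 0.99. In controls, with dexamethasone and with EPC-EVs the group means were 65.0, 59.1 and 81.9 CPM for Gtf3c4. They were 16.0, 9.59 and 54.1 CPM for Rab34, and 4251, 3410 and 11901 CPM for Col12a1. Igf1 itself had 54.5, 33.4 and 195 CPM, so a high correlation did not mean a change of like size. For Igfbp7 they were Galm (0.998), Nup93 (0.998) and Mib1 (0.997), with 5 genes above 0.99. For Igf2r they were Pcgf2 (0.968), Rprd2 (0.961) and Numa1 (0.959).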

How the data were processed

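Reads of the 6 libraries were aligned by the authors with HISAT2 to GRCm38 and counted per gene with HTSeq 0.6.1 (tools per the labels' processing notes also include DESeq2 1.26.0). The authors deposited a table of raw read counts per gene and of FPKM values, which equal the count over gene length and column total, and StringTie transcript FPKM, of which chromosome 1 was used. Columns of their own comparisons (fold changes and p-values) were not used. Counts of the 4 libraries compared were filtered with filterByExpr, TMM-normalized and tested with the robust quasi-likelihood test of edgeR 4.0.16 (R 4.3.3), with Benjamini-Hochberg adjustment over all genes tested and a call at an adjusted p under 0.05. CPM use TMM factors over the 6 libraries. Alternatives used limma 3.58.1 on log2(FPKM + 1), DESeq2 1.42.0, other scalings and filters, and the replicate numbers as a block. A further alternative, chosen after seeing the data, removed a loess trend on GC content and gene length. It was fitted per library to the deviations of log2 CPM from the gene means. GC content was that of the longest annotated transcript of a gene. The tests were checked on simulated data.

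Of the table's IDs, 21646 of 21686 matched GENCODE vM21. All 8 IGF genes were described, and of the other pathway genes at most 10 per comparison were named: those called with a mean of at least 10 CPM and libraries that did not overlap, by size of change. Of the pathway genes, 2 are counted but not reported here. Igfbp4 and other genes that did not pass are given as values. Igf2bp1, Stat5a, Stat5b, Ghr, Pappa, Htra3 and Insr lie outside that rule and were chosen after their values were seen. The genes and lists were chosen with earlier results of these data known. Replicates were not copies of 1 library, as their counts differed by 7.17 to 20.1 times the chi-square expected per degree of freedom. Of count data, 3 counts correspond to 0.228 to 0.583 CPM per library.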

Additional observations from a re-analysis of the deposited data

How the results depend on the processing

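Of 336 refits of the 8 IGF genes (14 alternatives in 3 comparisons), 291 kept direction and call, 8 lost the call, 5 gained one and 32 turned direction, and of 280 refits of the named pathway genes 271 kept both, 9 lost the call and 0 turned. The cause was not tested. Without control replicate 1, in a fit with 1 control library, the dexamethasone log2 fold changes of Igf1, Igfbp4 and Igfbp2 were -0.87, 0.58 and 4.24. The 8 genes gave 1 call against control with the GC and length trend removed, where 26.4% of all genes passed. They gave 1 with EPC-EVs against dexamethasone at an unadjusted p under 0.05 with a log2 fold change beyond 1.5. The share of all genes passing at that threshold was not counted. Between dexamethasone and control, 1.26% of all genes passed with no filter, 1.04% with DESeq2 and 0.334% with the replicate block. In the fit as reported this share was 0.0544%. The pathway genes gave, between dexamethasone and control, 2 calls with no filter (Akt1 and Pappa2), 1 with DESeq2 and 1 with the replicate block (both Pappa2) and 0 to 11 over libraries left out (11 without control replicate 1, and 1, Akt1, without control replicate 2, where 18.2% and 1.40% of all genes passed). With EPC-EVs against dexamethasone they gave 3 at that threshold and 12 to 24 over libraries left out (12 without dexamethasone replicate 2), and against control 13 with the trend removed (26.4% of all genes) and 7 at that threshold.

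Direction turned for dexamethasone against control with the trend removed in Igfbp6 (-0.28) and Igfbp7 (-0.11), with library totals in Igf2r (0.0587) and Igfbp5 (0.0452) and with limma in Igf2r (0.0652) and Igfbp5 (0.0289). With the trend removed it turned in Igf2r against dexamethasone (-0.0726) and against control in Igf1r (0.0290), Igfbp4 (-0.75), Igfbp6 (-0.20), Igf2r (-0.16) and Igfbp2 (-1.02), and in Igfbp4 against control also with limma (-0.0539). Over libraries left out, the dexamethasone values ran from -0.0577 to 0.0842 in Igf1r, -0.19 to 0.57 in Igfbp6, -0.14 to 0.10 in Igf2r and -0.19 to 0.11 in Igfbp5. With EPC-EVs against dexamethasone they ran from -1.17 to 0.23 in Igfbp4, -0.0297 to 0.14 in Igf2r and -0.67 to 0.25 in Igfbp5, and against control from -0.80 to 0.59 in Igfbp4, -0.0714 to 0.19 in Igf2r, -0.70 to 0.22 in Igfbp5 and -0.47 to 3.26 in Igfbp2. Apart from Igfbp6 against the control, none of these values had been called.

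The labels link samples of different groups by the replicate number only, and whether same-numbered samples were handled together is not given. Same-numbered deviations correlated at 0.140 between control and dexamethasone, 0.0370 between control and EPC-EVs and -0.00218 between dexamethasone and EPC-EVs, over 9223 genes. For dexamethasone against control 0.334% of all genes passed with the replicate block and 0.0544% without it. With the replicate block the 8 genes gave 0, 3 and 3 calls as before, and Igfbp4 against control turned to -0.0818. Igfbp2 had 1 to 35 counts per library.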

Other observations

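Transcript FPKM of chromosome 1, assembled by the authors with StringTie, held 6 transcripts of these genes among 10537 rows, 4 of Igfbp2 and 2 of Igfbp5, and are given as values with no test. The annotated Igfbp2 transcript ENSMUST00000047328.10, of 4 exons, had 1.55 and 0.185 FPKM in controls, 2.11 and 3.01 FPKM with dexamethasone and 1.07 and 0.917 FPKM with EPC-EVs. A shorter Igfbp2 transcript of 3 exons, ENSMUST00000155703.1, was listed above 0 in the EPC-EV libraries only, at 0.568 and 0.389 FPKM. The remaining Igfbp2 rows were single-exon assembled pieces also seen in controls. The piece at bases 72835183 to 72835402 had 0.465 FPKM in control replicate 1 and 1.76 in EPC-EV replicate 2. The piece at bases 72838136 to 72838475 had 2.13 FPKM in control replicate 2 and 0.380 in EPC-EV replicate 2. Both were at 0 elsewhere. The annotated Igfbp5 transcript ENSMUST00000027377.8 had 1.75 and 1.41, 2.20 and 1.67, and 2.39 and 1.33 FPKM. A single-exon assembled piece inside Igfbp5 (bases 72864646 to 72864949) was listed at 0.641 and 1.70 FPKM with EPC-EVs and at 0 in the other 4 libraries, which were sequenced less deeply.

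Among the genes of IGF availability, Igfals, the acid-labile subunit of the circulating IGF complex, had 1 and 6 counts with EPC-EVs and 0 counts elsewhere. Stc1, an inhibitor of pappalysins, had 11 counts in control replicate 1, 1 count in dexamethasone replicate 1 and 0 in the others. Neither was tested.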
